A study of Mus musculus with 2 samples.

Results

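Amino acid transporters carry amino acids across the plasma membrane, the lysosomal membrane and the inner mitochondrial membrane. In beta cells they supply substrates for mitochondrial metabolism and for insulin synthesis, and the entry of cationic amino acids such as arginine depolarises the cell and triggers secretion. Many of these genes also belong to the response to amino acid shortage, in which the kinase GCN2 and the transcription factor ATF4 raise transporter and biosynthetic transcripts. The 36 transporter genes described here were taken from the SLC1, SLC3, SLC6, SLC7, SLC16, SLC25, SLC36, SLC38 and SLC43 families by name, and their probes were found through the gene names in the array files. All 36 had at least 1 probe, out of 34797 gene names on the array, and they had 51 probes in all.

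Both samples were labelled as beta cells from 6-month-old mice of strain C57BL/6J kept on high-fat food. One came from CSE knockouts (CSE-KO) and the other from the wild type (CSE-WT). CSE is cystathionine gamma-lyase, the product of Cth, which makes cysteine from cystathionine and releases hydrogen sulfide. Each genotype had 1 Agilent array hybridised with Cy3-labelled RNA, so the differences carry no replicate check and their precision is limited by that number. How many animals gave each sample, how the cells were prepared and how the knockout was made are not given in the sources used here. Diet, age and strain were shared, so the genotype is the labelled difference between the samples.

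Values are processed spot intensities, and differences are CSE-KO minus CSE-WT in log2 units after each array was scaled to the 75th percentile of its gene probes. A fixed size rule of 2-fold took the place of a test. The spot SD is the technical error of such a difference, taken from 399 probes printed 10 times on each array, and it holds nothing of the spread between animals or preparations. A gene was measured when a probe was well above background on both arrays, and its value is that of its brightest measured probe. The Cth probes, at 3.15 and 3.68 units in CSE-KO and at 13.5 and 12.8 units in CSE-WT, were not well above background on either array and give no firm check of the genotype.

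The marker genes of beta cells were bright in both samples, and those of other pancreatic cells were present too. Ins1 gave 482701 units in CSE-KO and 503410 units in CSE-WT, and all 9 beta-cell markers were measured, with a median difference of -0.06. Glucagon (Gcg) gave 360773 units in CSE-KO and 381292 units in CSE-WT, and the acinar gene Amy2a5 gave 149025 units in CSE-KO and 191897 units in CSE-WT. In such mixed samples fewer cells of a type and less RNA per cell cannot be told apart. Of the marker lists of other cells, all 5 alpha-cell markers were lower in CSE-KO (summed intensity 364255 units, against 386346 in CSE-WT). All 4 stellate and fibroblast markers were higher (925 units in CSE-KO and 534 in CSE-WT). The leukocyte markers were higher in 5 of 6 (23851 units in CSE-KO and 22317 in CSE-WT). Most of the leukocyte sum was Cd3e (21434 units in CSE-KO and 20467 in CSE-WT). Erythroid markers were lower in 3 of 4 (21457 units in CSE-KO and 28849 in CSE-WT). The 8 acinar markers were split, with 4 higher and 4 lower (459106 units in CSE-KO and 468002 in CSE-WT).

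Slc7a3 and Slc38a5 stood lower in CSE-KO. By their brightest measured probes, the other measured transporters differed by at most 0.36 log2 units between the arrays. Of the 36 genes, 31 were measured. The median difference of these was 0.00066, against -0.0060 for all 22160 measured genes, and their median absolute difference was 0.15, against 0.13 for all measured genes. In CSE-KO 16 members were higher and 15 lower, and 48.7% of all measured genes were higher. One member, the cationic transporter gene Slc7a3, was at least 2-fold lower, where 0.884% of all measured genes were. Of those 196 genes, 72 lay in patches of adjacent spots that differed together between the arrays, and without patch probes 124 of 21784 genes were 2-fold lower. None was at least 2-fold higher, where 0.718% of all measured genes were. The SNAT gene Slc38a5 fell just short of the rule at 1.998-fold lower, and the next member, Slc7a2, was 1.24-fold lower. Past 1.5-fold there were 2 lower members and 0 higher ones, against 2.5% and 3.1% of all measured genes. The other 29 measured members ranged from -0.31 to 0.36. By more than 3 times the spot SD, 8 members were higher and 4 lower. Of all measured genes, 9.75% were higher and 11% lower by that much. Among the 8, Slc7a8 and Slc1a1 were printed 10 times, which makes their spot SD smaller. With the measured probes of a gene averaged, 5 members were higher and 4 lower by that much.

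**Figure D1:**
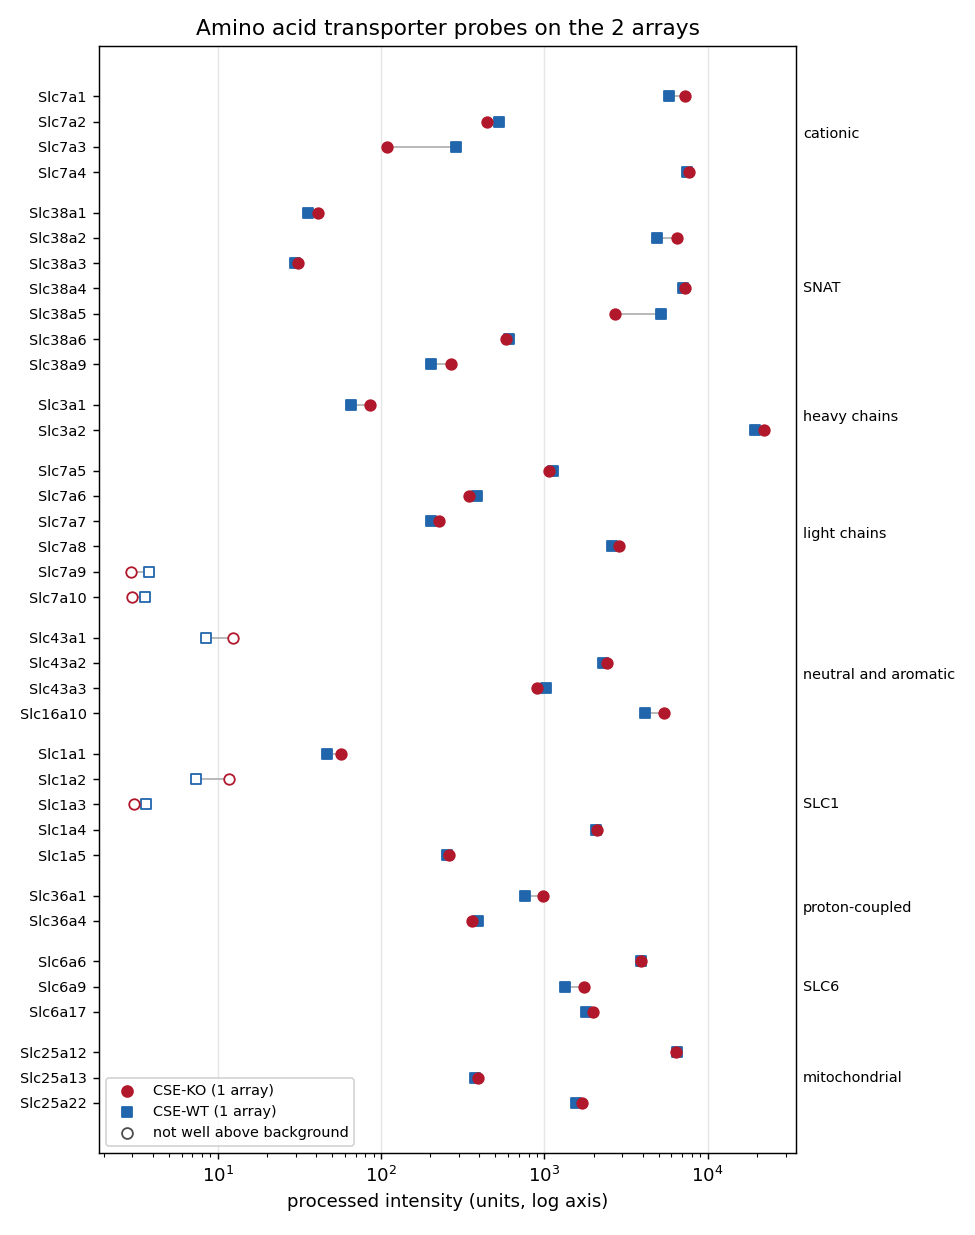
Processed intensity of each of the 36 transporter genes on a log axis, grouped by family or role, with red circles for CSE-KO and blue squares for CSE-WT (1 array each). Open symbols mark the 5 genes not well above background on either array. The widest gaps among measured genes are Slc7a3 (108 units in CSE-KO and 289 in CSE-WT) and Slc38a5 (2702 in CSE-KO and 5195 in CSE-WT).

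The SLC7 cationic transporters import arginine, lysine and ornithine. Slc7a3, which encodes CAT3, gave 108 units in CSE-KO and 289 units in CSE-WT. This is a difference of -1.47 (spot SD 0.12), or 2.76-fold lower in CSE-KO, and 115 of the 22160 measured genes had a lower difference. Slc7a3 was measured by a single spot, whose probe lies on the minus strand of chromosome X at positions 98274644 to 98274703 (mm9). The first 30 of its 60 bases are shown because the value rests on this 1 sequence, 5′ to 3′ as in the array files.

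Slc7a3 probe: ggatatgaaataatgctctgtatttcttgt

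Some spots on the CSE-WT array lay in small bright patches, so the surroundings of this spot were measured. The 7 adjacent gene spots had a median difference of -0.04, with a range of -0.80 to 0.22. In the same column, 3 spots that lay 3 to 5 rows away were brighter on CSE-WT, with differences of -6.11, -5.46 and -5.07. Their excess in units was not compared with that of Slc7a3, and their part in its value was not tested. For scale, the middle Slc38a1 probe described below, with a difference of -6.22, gave 3.17 units in CSE-KO and 227 in CSE-WT. The largest excess on CSE-WT among adjacent spots that were dim on CSE-KO, a control spot, was 14.9 units (3.07 units in CSE-KO and 18.02 in CSE-WT), against a gap of 180 units for Slc7a3 itself. Its pixels were even, with a coefficient of variation of 19.2% in CSE-KO and 14.1% in CSE-WT, at percentiles 44.8 and 23.4 of the spots of like brightness on those arrays. No second probe of Slc7a3 was on the array.

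The other cationic transporters differed less and not in 1 direction. Slc7a1, which encodes the widely expressed CAT1, gave 7244 units in CSE-KO and 5795 units in CSE-WT (difference 0.27, spot SD 0.050). Slc7a2, which encodes CAT2, gave 445 units in CSE-KO and 530 units in CSE-WT (difference -0.31, spot SD 0.079). Slc7a1 was thus higher and Slc7a2 lower in CSE-KO, each by more than 3 spot SD. Slc7a4, a relative for which transport activity is not well established, gave 7631 units in CSE-KO and 7417 in CSE-WT (difference -0.01). Its second probe did not clear background on either array.

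The SLC38 family (SNATs) carries small neutral amino acids such as glutamine, alanine and asparagine together with sodium. Slc38a5 encodes SNAT5, a system N transporter of glutamine, asparagine, histidine and serine. It gave 2702 units in CSE-KO and 5195 units in CSE-WT, a difference of -0.999 (spot SD 0.055). The difference is -18.2 times the spot SD, and 196 of the 22160 measured genes had a lower difference. The single probe lies on the plus strand of chromosome X at positions 7857241 to 7857300 (mm9), and its first 30 bases are shown for the same reason as for Slc7a3.

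Slc38a5 probe: cctagatgaagctgttagggttaccctggc

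No adjacent spot of Slc38a5 showed a patch. The median difference of its 8 adjacent gene spots was 0.0046, and the largest excess on CSE-WT among adjacent spots dim on CSE-KO was 0.735 units. The pixel coefficient of variation was 13.1% in CSE-KO and 13.3% in CSE-WT. Slc7a3 and Slc38a5 are the 2 X-linked genes among the 31 measured members.

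The alpha-cell markers were also lower in CSE-KO. Among them, the transcription factor genes Irx1 (-0.66) and Irx2 (-0.62) differed by less than Slc7a3 and Slc38a5, and Gcg differed by -0.14. The part of the cell mixture in the transporter differences was not tested.

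**Figure D2:**
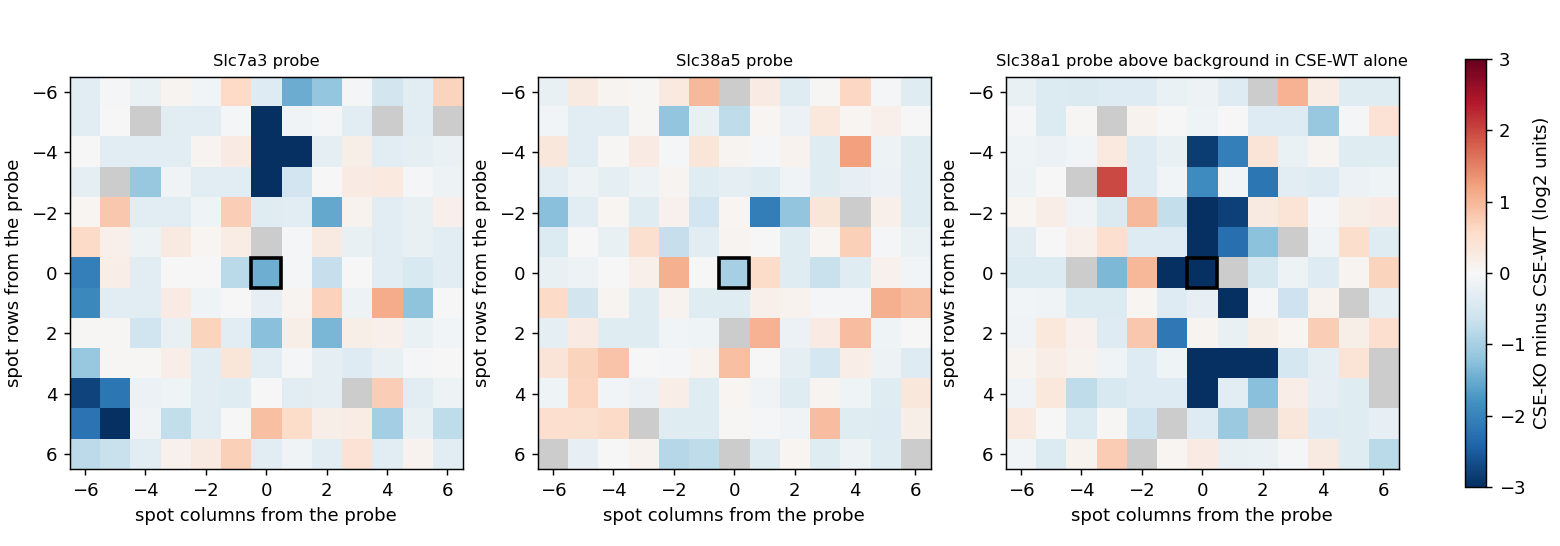
Difference between the arrays (CSE-KO minus CSE-WT, log2 units) for the gene spots around 3 transporter probes, each boxed at the centre, with spot rows and columns from the probe on the axes and control spots in grey. Blue is brighter on CSE-WT. The Slc38a1 probe sits inside a streak of blue spots (median of adjacent spots -2.27), Slc7a3 lies near one but has adjacent spots at a median of -0.04, and Slc38a5 has none beside it (0.0046).

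Other SLC38 genes were higher in CSE-KO or near equal. Slc38a2, which encodes SNAT2, the system A transporter that cells raise on amino acid shortage, gave 6458 units in CSE-KO and 4881 units in CSE-WT (difference 0.35, spot SD 0.051). Slc38a4, which encodes SNAT4, gave 7239 units in CSE-KO and 7084 in CSE-WT (difference -0.02). Slc38a9, whose product sits in the lysosomal membrane and reports arginine to the kinase complex mTORC1, gave 269 units in CSE-KO and 202 units in CSE-WT (difference 0.36, spot SD 0.098). One of its other probes gave 0.40 and the remaining one -0.03, both on dim spots. Slc38a3, the gene of the other system N transporter SNAT3, was dim and equal within spot error at 31.0 units in CSE-KO and 29.9 in CSE-WT (difference -0.0035, spot SD 0.27). Slc38a6 gave -0.10 by its brighter probe and 0.32 by its dimmer one.

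Slc38a1, which encodes the system A transporter SNAT1, had probes that disagreed. Its 3 probes on the minus strand of chromosome 15 (mm9) lie at positions 96402753 to 96402812, 96405187 to 96405246 and 96406793 to 96406852. The first 30 bases of each are given in that order.

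Slc38a1 first probe: gaatctatgcagcagaggctcactttagga
Slc38a1 middle probe: tgaccacctttgtagctctgtttgtactgt
Slc38a1 last probe: tggaaacacgatcaacagttgtcttcactt

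The first probe gave 41.2 units in CSE-KO and 35.8 units in CSE-WT (difference 0.15, spot SD 0.26), and the last gave 40.5 units in CSE-KO and 23.7 in CSE-WT (0.72, spot SD 0.26). The middle probe gave 3.17 units in CSE-KO, not well above background, and 227 units in CSE-WT. Taken alone it would put Slc38a1 at least 16.3-fold lower in CSE-KO, against higher values by the other 2. Its spot lay in a bright patch of the CSE-WT array. The 7 adjacent gene spots had a median difference of -2.27, and its pixels on that array had a coefficient of variation of 31.8%, at percentile 98.3 of spots of like brightness. This was the sole probe of the 51 that lay in a patch.

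**Figure D3:**
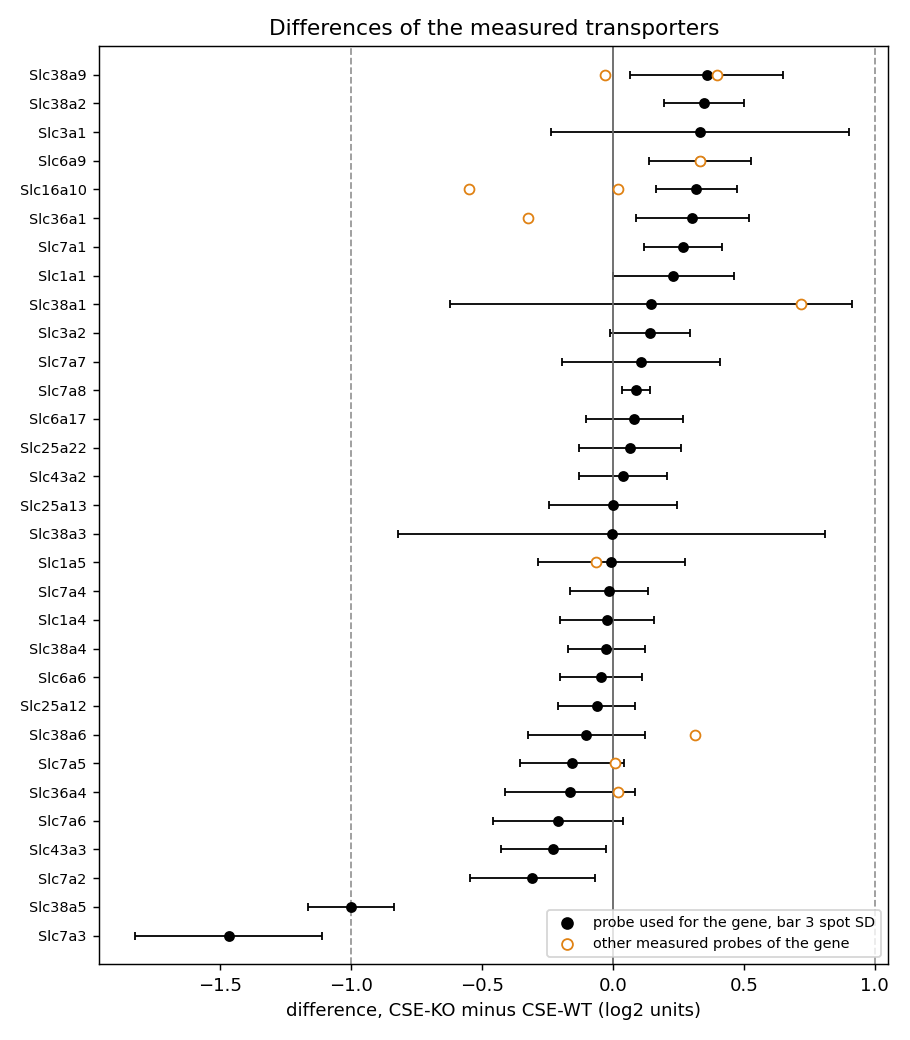
Difference of the 31 measured transporters (CSE-KO minus CSE-WT, log2 units), ordered by size, with the probe used for each gene as a black point and a bar of 3 spot SD. Orange circles are other measured probes of the same gene and dashed lines mark 2-fold. By the probe used, Slc7a3 (-1.47) and Slc38a5 (-0.999) stand below the other 29, which lie between -0.31 and 0.36.

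Heteromeric transporters pair a glycoprotein heavy chain with a light chain that does the transport. The heavy chain gene Slc3a2 (CD98) gave 22221 units in CSE-KO and 19358 units in CSE-WT (difference 0.14, spot SD 0.051). The other heavy chain gene, Slc3a1, gave 86.0 units in CSE-KO and 65.6 in CSE-WT (difference 0.33, spot SD 0.19). Neither passed 3 spot SD. Among the light chains, Slc7a8, which encodes LAT2, was printed 10 times. Its spots ranged from 2729 to 2990 units in CSE-KO (median 2861) and from 2425 to 2666 units in CSE-WT (median 2613), without overlap in these unscaled units. After scaling, the ranges overlapped (2.34 to 2.47 log2 units in CSE-KO and 2.22 to 2.36 in CSE-WT). By position, 9 of the 10 spots were then higher in CSE-KO, and the difference was small at 0.09 (spot SD 0.018). Slc7a5, which encodes the leucine transporter LAT1, gave 1060 units in CSE-KO and 1136 in CSE-WT (difference -0.16, spot SD 0.066). Slc7a6 (-0.21) and Slc7a7 (0.11), the genes of the y+L light chains, were within 3 spot SD of 0. Slc7a9 and Slc7a10 were not well above background on either array.

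Among the uniporters of large neutral and aromatic amino acids, Slc43a2, which encodes LAT4, gave 2423 units in CSE-KO and 2269 in CSE-WT (difference 0.04). Slc43a3, whose product is now known to carry purine nucleobases, gave 902 units in CSE-KO and 1016 units in CSE-WT (difference -0.23, spot SD 0.067). Slc43a1 did not clear background on either array. Slc16a10, which encodes the aromatic amino acid transporter TAT1, gave different answers by probe. The brightest, at positions 39756480 to 39756539 on the minus strand of chromosome 10 (mm9), gave 5376 units in CSE-KO and 4148 units in CSE-WT (difference 0.32, spot SD 0.052). A probe 96430 bases away gave 171 units in CSE-KO and 241 in CSE-WT (difference -0.55, spot SD 0.11), and one 39246 bases away gave 102 units in CSE-KO and 97.1 in CSE-WT (0.02). The pixels of the brightest probe were uneven, with a coefficient of variation of 19.1% in CSE-KO and 20.4% in CSE-WT. These lie at percentiles 95.99 and 98.4 of spots of like brightness. Its lowest adjacent spot differed by -3.38 before scaling, with an adjacent median of 0.07. The probe 96430 bases away lay at percentiles 2.19 and 94.2, and the other at 74.8 and 59.8. The part of uneven pixels in these differences was not tested. The mean of the 3 probes was -0.071, so no single direction holds for Slc16a10. The start of the sequence of each is shown, since the direction turns on which is read.

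Slc16a10 brightest probe: gccaacctaaaccttgagtctgttaaatga
Slc16a10 middle probe: tgtgagatatttctggaaaacacgagaatt
Slc16a10 distant probe: gagtttccgtcttctgtattcctcttacta

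The SLC1 family holds glutamate transporters and the neutral exchangers ASCT1 and ASCT2. Slc1a1, the gene of the glutamate and cysteine transporter EAAT3, was also printed 10 times. Its spots ranged from 43.8 to 70.7 units in CSE-KO (median 57.2) and, over the 9 spots kept, from 38.3 to 52.6 units in CSE-WT (median 46.9), and the ranges overlapped. The difference was 0.23 (spot SD 0.077, ranging from 0.06 to 0.33 over the processing alternatives), and 8 of the 9 spots compared were higher in CSE-KO after scaling. The ASCT1 gene Slc1a4 gave 2108 units in CSE-KO and 2061 in CSE-WT (difference -0.02). The ASCT2 gene Slc1a5, the glutamine exchanger, gave 262 units in CSE-KO and 253 in CSE-WT (difference -0.0053). The glial glutamate transporter genes Slc1a2 and Slc1a3 were not well above background on either array. The 7 probes of the 5 genes without a measured probe lay between 2.94 and 12.4 units in CSE-KO and between 3.61 and 8.42 units in CSE-WT.

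In the SLC6 family, Slc6a9, which encodes the glycine transporter GlyT1, gave 1757 units in CSE-KO and 1342 units in CSE-WT (difference 0.33, spot SD 0.065). A second probe gave 1347 units in CSE-KO and 1030 in CSE-WT (0.33). These are not independent measurements of the transcript, since the second probe starts 9 bases after the first on the plus strand of chromosome 4 (mm9, positions 117541842 to 117541901 for the first), and they share 51 bases. In the first 30 bases of each, the shared stretch is in capitals.

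Slc6a9 first probe: gcccagtgtGTGCAGAACTAGGGTTTTAAA
Slc6a9 second probe: GTGCAGAACTAGGGTTTTAAAgtccgtagg

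The taurine transporter gene Slc6a6 gave 3924 units in CSE-KO and 3898 in CSE-WT (difference -0.05), and Slc6a17, the gene of a vesicular neutral amino acid transporter, differed by 0.08. Both were within 3 spot SD of 0. Of the proton-coupled transporters, Slc36a1 (PAT1), found on lysosomes and at the cell surface, gave 975 units in CSE-KO and 760 units in CSE-WT (difference 0.30, spot SD 0.072). Its dimmer probe gave -0.32 (spot SD 0.20), so the direction for Slc36a1 depends on the probe too. Slc36a4 differed by -0.17 (spot SD 0.083).

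Mitochondrial carriers differed little. Slc25a12, which encodes aralar, the aspartate-glutamate carrier of the malate-aspartate shuttle, gave 6424 units in CSE-KO and 6451 in CSE-WT (difference -0.06). Its relative Slc25a13 (citrin) differed by 0.00066, and the glutamate carrier gene Slc25a22 by 0.07. All 3 lay within 3 spot SD of 0.

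Probes of 1 gene did not always have the same sign. Of the 9 members with more than 1 measured probe, 6 had probes on both sides of 0, namely Slc16a10, Slc36a1, Slc36a4, Slc38a6, Slc38a9 and Slc7a5. Past 3 spot SD in both directions was 1 of them, Slc16a10. In Slc36a4, Slc7a5 and Slc38a9 the probe of opposite sign was within 1 spot SD of 0 (0.02, 0.0094 and -0.03). Slc7a3 and Slc38a5, the 2 members with the largest differences, have 1 probe each, so this check could not be made for them.

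Other transporters of amino acids and peptides were read from a further list of 41 genes. Of these 24 were measured, 16 higher and 8 lower in CSE-KO (median 0.07, against -0.0060 for all measured genes). Past 1.5-fold were 2, both higher, where 3.1% of all measured genes were higher and 2.5% lower by that much. Slc15a3, the gene of a lysosomal peptide and histidine transporter of immune cells, gave 69.7 units in CSE-KO and 35.4 units in CSE-WT (1.90-fold higher). Slc15a2, the gene of the peptide transporter PEPT2, gave 127 units in CSE-KO and 68.6 in CSE-WT (1.79-fold higher). The 6 leukocyte markers had a median difference of 0.17 and ranged from -0.04 (Cd79a) to 0.89 (Itgax), and their part in the Slc15a3 value was not tested. The cystine-glutamate exchanger gene Slc7a11 was not measured by the same criterion. Among the lower genes of this list, Slc38a8 (-0.38) lay in a patch, and without patch probes the list's median was 0.076.

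Genes of the amino acid response did not move as 1 group. Of 24 listed, 23 were measured, 8 higher and 15 lower in CSE-KO (median -0.11). By more than 3 spot SD, 4 were higher and 10 lower, where 9.75% of all measured genes were higher and 11% lower. Past 1.5-fold, 2 were higher and 3 lower, where 3.1% of all measured genes were higher and 2.5% lower. The serine synthesis gene Psat1 gave 1715 units in CSE-KO and 3194 units in CSE-WT (1.94-fold lower), and the mitochondrial folate enzyme gene Aldh1l2 gave 1601 units in CSE-KO and 2975 in CSE-WT (1.93-fold lower). The stress-induced gene Nupr1 was 1.51-fold lower. On the other side, the pseudokinase gene Trib3 was 1.63-fold higher and Chac1, which encodes a glutathione-degrading enzyme, 1.55-fold higher. Atf4 itself gave 86741 units in CSE-KO and 75586 in CSE-WT (difference 0.14, spot SD 0.050).

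**Figure D4:**
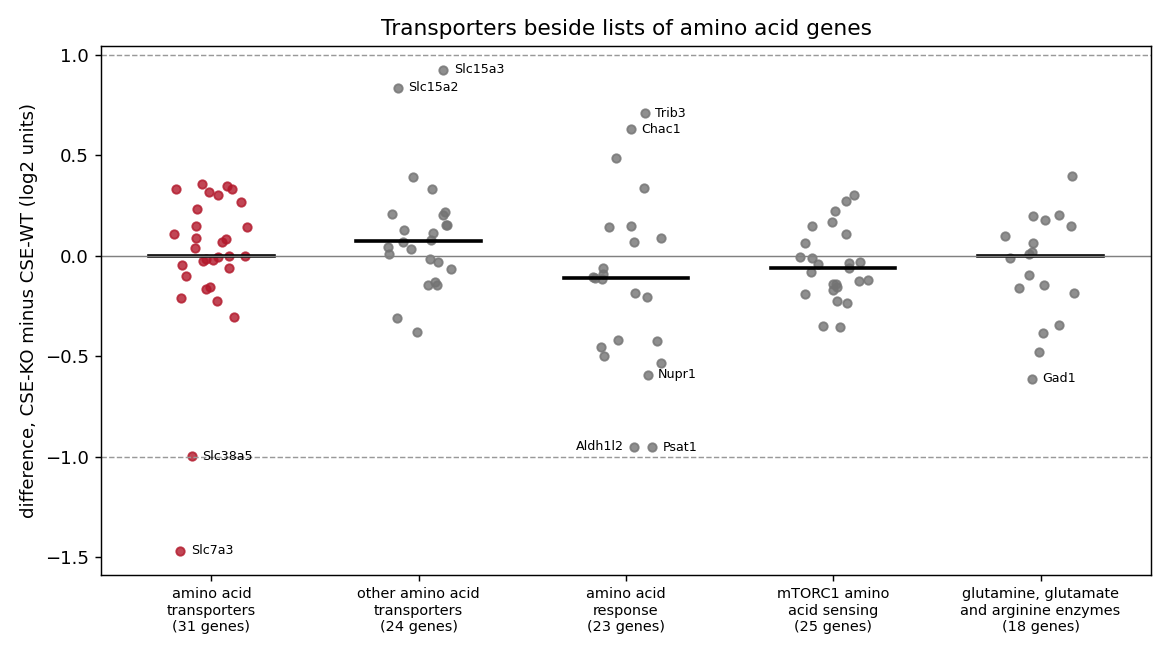
Differences (CSE-KO minus CSE-WT, log2 units) of the measured transporters in red and of 4 further lists of amino acid genes in grey, 1 point per gene, with a bar at each median and dashed lines at 2-fold. Genes past 1.5-fold are named. In the transporter list Slc7a3 and Slc38a5 stand below the rest, and in the amino acid response list Psat1 and Aldh1l2 lie near -0.95 while Trib3 and Chac1 lie at 0.71 and 0.63.

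Of 26 listed genes of amino acid sensing by mTORC1, 25 were measured, 7 higher and 18 lower in CSE-KO (median -0.06), with none past 1.5-fold. The largest differences were in Fnip1 (-0.36) and Flcn (-0.35), partners in the folliculin complex that acts on the Rag GTPases. Of 20 enzymes of glutamine, glutamate and arginine metabolism, 18 were measured, 9 higher and 9 lower (median -0.0013). Past 1.5-fold was 1, Gad1, which encodes the glutamate decarboxylase that makes GABA. It gave 2990 units in CSE-KO and 4398 in CSE-WT (1.53-fold lower). Of all measured genes, 3.1% were higher and 2.5% lower past 1.5-fold.

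ATF4 and its partners bind composite elements of the form TGATGNAA, and promoters of the members were searched for it on both strands. RefSeq promoter windows (250 bases before to 50 after the start site, GRCm38.p6) were matched by symbol for 27 of the 36 members, with 42 windows. The motif was found in 2 members, Slc1a4 and Slc7a7, in 3 of the 42 windows. Of all 32851 windows 3.97% held it. The matches, in capitals, stand in these stretches of the strand of the gene, where TTGCATCA is the motif read on the other strand. The 2 windows of Slc7a7 overlap and share 1 match, and a further match lies in the upstream part of one of them.

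Slc1a4: cctgcgTTGCATCAtctcca
Slc7a7 shared match: agaagcTGATGCAAcagctt
Slc7a7 further match: tgggctTGATGAAAggttca

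Neither gene differed by more than 3 spot SD (-0.02 for Slc1a4 and 0.11 for Slc7a7). The 250 bases before the start of Slc38a5, on the plus strand at chrX:8271131-8271380 (GRCm38.p6), are shown because it had the largest difference among the members for which a window was matched. These letters hold no match, which says nothing about binding elsewhere.

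Slc38a5 promoter: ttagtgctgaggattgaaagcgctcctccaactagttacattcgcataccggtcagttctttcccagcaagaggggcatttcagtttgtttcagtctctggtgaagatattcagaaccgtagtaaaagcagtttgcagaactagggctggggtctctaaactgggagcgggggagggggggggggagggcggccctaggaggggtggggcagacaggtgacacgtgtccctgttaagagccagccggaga

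The lower values of Slc7a3 and Slc38a5 were seen under every scaling tried. Slc7a3 ranged from -1.505 to -1.09 and Slc38a5 from -0.999 to -0.96 over the alternatives, normexp background correction giving the smallest differences for Slc7a3. In the authors' deposited table, which has the same quartiles in both columns, Slc7a3 differed by -1.46 and Slc38a5 by -0.98.

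**Figure D5:**
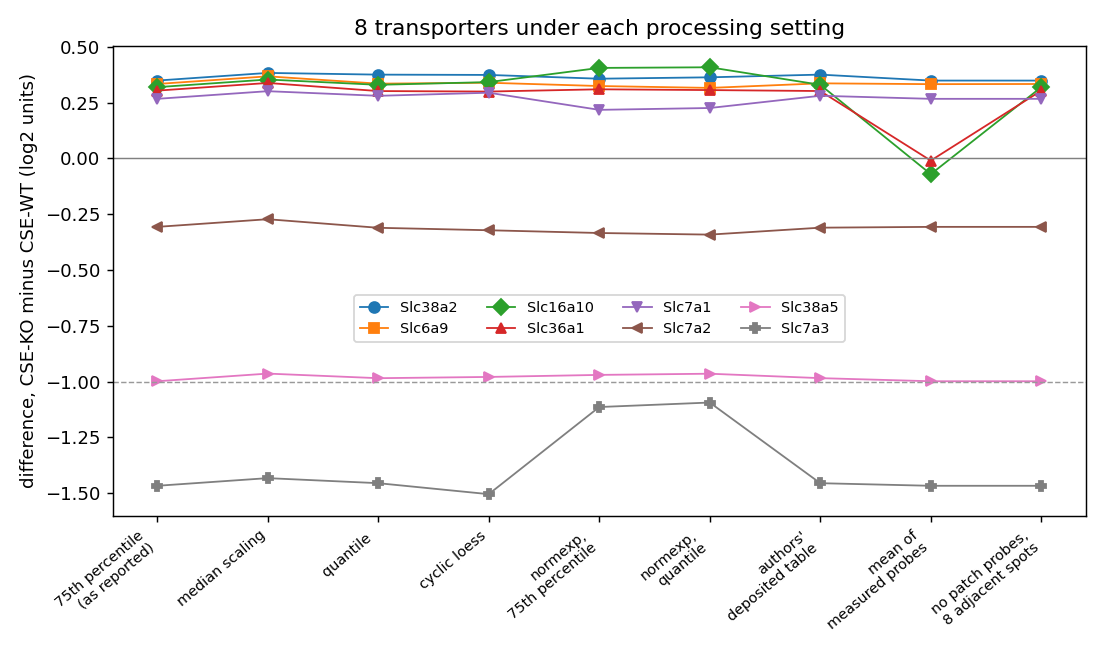
Difference (CSE-KO minus CSE-WT, log2 units) of 8 transporters under each processing setting along the axis, 1 line per gene, with a dashed line at 2-fold lower. Slc7a3 stays between -1.505 and -1.09 and Slc38a5 between -0.999 and -0.96, while Slc16a10 and Slc36a1 turn to -0.071 and -0.010 when the probes of a gene are averaged.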

How the data were processed

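RNA from 1 CSE-KO and 1 CSE-WT sample was hybridised to 1-colour Agilent mouse arrays. The spot intensities were made by Agilent Feature Extraction, per the file headers, which give version 10.7.1.1, whereas 9.5.1.1 is the version in the submitters' processing notes. The authors' deposited table of normalized intensity values, whose steps are not given in the sources used here, served as an alternative. From 59305 gene spots, those flagged as outliers (169 in CSE-KO and 139 in CSE-WT) were left out and spots of 1 probe averaged, giving 55681 probes. The 75th percentile was 540 units in CSE-KO and 519 units in CSE-WT. Of the probes, 59.6% in CSE-KO and 57.0% in CSE-WT were well above background, and no gene spot was saturated. Gene names are those of the array files, and probe coordinates are the files' own (mm9). No mm9 genome or annotation was used, so exon and UTR placement of the probes was not determined.

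With 1 array a genotype there was no test. All members could be named, with the full account for those past 2-fold, 1.5-fold or 3 spot SD. The members, the gene lists and the rules were chosen with earlier results of these data known. A patch is a median difference of the 8 adjacent spots past 0.5 log2 units from the median of all gene spots. The code was tested on simulated data. R 4.3.3, limma 3.58.1 and pandas 2.3.3 were used. Alternatives were other scalings, normexp background correction, no filter on dim probes, the mean over probes, current symbols, the authors' table and leaving out probes in patches.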

Additional observations from a re-analysis of the deposited data

How the results depend on the processing

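Of 310 values of single transporters under the alternatives, 284 moved by less than the spot SD and 24 moved by more. The other 2 were members past 3 spot SD that changed sign. Averaging the measured probes of a gene gave -0.071 for Slc16a10 and -0.010 for Slc36a1. Part of the 284 values could not move. Leaving out the filter on dim probes or the patch probes changed no member's value, since the same probe was used. Averaging could change only members with more than 1 measured probe. The sign was the same under all alternatives in 20 of 31 members, and the other 9 that changed sign were within 3 spot SD of 0 as reported. At 1.5-fold in place of 2-fold the count of lower members was 2, and it was 1 under the other settings. Scaling to the median made 21 members higher and 10 lower (67.7% higher, against 51.6% with the 75th percentile). Among the 22160 measured genes, 2-fold calls as reported were 159 higher and 196 lower in CSE-KO. Normexp gave 36 higher and 97 lower (38 and 96 with quantile normalization), no filter on dim probes gave 1129 and 1437, and leaving out probes in patches of 8 adjacent spots gave 157 and 124. The version with the 24 nearest spots, chosen after seeing the data, gave 158 and 149. The causes were not tested. No paired analysis was possible because each genotype had 1 array. Precision was lowest for dim genes, where the spot SD of a difference reached 0.27.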
